A study of Mus musculus with 8 samples.

Results

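The genes that carry new proteins into the endoplasmic reticulum (ER), attach sugars to them and pack them into transport vesicles were examined in mouse Paneth cells (PCs), the granule-filled secretory cells at the base of the small intestinal crypts. A list of 53 genes, drawn up by the function of their products, was read from a table of raw counts for 55414 genes in 8 bulk RNA-seq libraries. All 53 were found, and all 53 passed the filter on low counts that left 10707 genes for testing. They comprised 6 genes of the signal recognition particle (SRP) and its receptor, 10 of the translocon and its partners, 5 of signal peptidase, 8 of oligosaccharyltransferase, 10 of the COPII coat, 6 of the COPI coat, and 8 cargo receptors.

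The libraries came from PCs sorted by fluorescence from the small intestine of mice, which the study describes as C57BL/6J. In the water group, 4 mice drank Milli-Q water (purified laboratory water) for 7 days, and in the zinc group 4 mice drank water with 25 mM zinc sulfate for 7 days. Per the labels, every mouse, controls included, afterwards received an injection of the inflammatory cytokine TNF (tumor necrosis factor) and its PCs were taken after 3 hours, so that neither group was meant to show PCs without TNF. The values of 1 library, given below, go against that label. The sources used here give neither the age nor the sex of these mice.

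A protein bound for secretion is recognised by its signal peptide as it leaves the ribosome. SRP binds the signal, halts synthesis and docks at its receptor on the ER, and the Sec61 channel then passes the chain into the lumen, where signal peptidase cuts the signal off and oligosaccharyltransferase (OST) adds a preassembled sugar tree to asparagine residues. Folded cargo leaves in COPII-coated vesicles, while COPI-coated vesicles return escaped ER proteins from the Golgi complex. PCs use this route for defensins, lysozyme and other granule proteins, all of which carry signal peptides.

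Library totals ran from 10623658 to 15101627 counts. Values are given as CPM, counts relative to the library size after scaling by TMM, and a gene with no count could have had up to 3 counts, or 0.178 to 0.369 CPM depending on the library. Summed markers of PCs were 732600 and 572600 CPM in Milli-Q water replicates 3 and 4 and 390000 to 492000 CPM in the other 6 libraries. The 11 markers of plasma, other immune and stromal cells summed to 13.3 to 28.5 CPM, 10 of them averaged under 1 CPM, and 3 (Mzb1, Col1a1 and Col3a1) were at 0 throughout. Goblet cell markers summed to 10200 to 15200 CPM and enteroendocrine and tuft cell markers to 0.861 to 12.8 CPM. A few libraries stood apart from the rest. In zinc replicate 3, all 9 TNF target genes were at their lowest, with a sum of 75.1 CPM against 1190 to 1430 CPM in the other 7 libraries, although its label names the same injection, so it is called the library labelled zinc replicate 3, or zinc replicate 3 for short. Enterocyte markers summed to 236 CPM in that library and to 26.9 to 88.7 CPM in the others, and 7 of the 7 enterocyte markers tested were at their highest there. Crypt stem cell markers summed to 418 to 613 CPM in water and to 488 to 1080 CPM in zinc (1012 CPM in zinc replicate 3, where 5 of the 7 tested were at their highest). In Milli-Q water replicates 3 and 4, long transcripts lay lower and short ones higher relative to the other libraries across all genes tested (Spearman's rho of deviation with length -0.335 and -0.34), whereas in the other 6 libraries rho ran from 0.000121 to 0.251. Results are therefore given with and without these 3 libraries. In bulk samples, fewer cells of a type and less RNA per cell cannot be told apart.

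The 53 genes took 0.616% to 0.856% of all counts in a library. To compare levels between genes, CPM was divided by the length in kilobases of the canonical transcript. On that scale the median of the 53 genes was 44.49 CPM per kilobase, and the means over 8 libraries ran from 1.92 for Sec61g to 175.7 for Sec61a1. Sec61a1 was at or above 99.0% of the genes tested and the median member at or above 95.1%, while Sec61g reached 33.5%. The levels of the 53 genes thus spanned a wide range, as the plot of levels by machine shows. The range was narrower within COPI, 39.94 to 73.31 CPM per kilobase. The low value of Sec61g is uncertain, as given below.

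**Figure D1:**
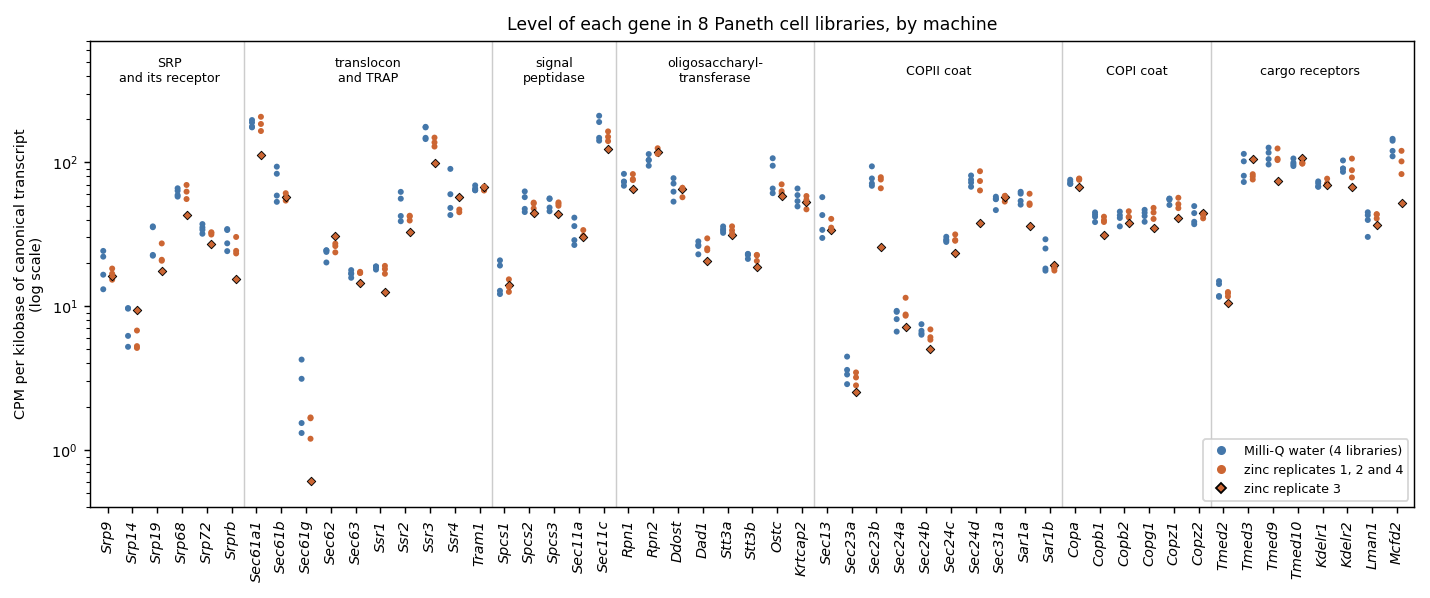
Level of each of the 53 genes in CPM per kilobase of canonical transcript (vertical axis, log scale), with genes on the horizontal axis grouped by machine. Each point is 1 library (blue, 4 Milli-Q water; orange, zinc; outlined diamond, zinc replicate 3). Means ran from 1.92 (Sec61g) to 175.7 (Sec61a1), and zinc replicate 3 lay well under the other libraries for Sec61g, Sec23b and Mcfd2.

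Among the SRP genes, Srp68 (chromosome 11, 116135989 to 116165412, GRCm39), a scaffold protein of the particle, had the highest level, 59.65 ± 8.03 CPM per kilobase (SD, n = 8). Srp72, its partner on the SRP RNA, followed at 32.72 ± 2.94 CPM per kilobase, and Srprb, the membrane-anchored subunit of the receptor, had 26.6 ± 6.25. Srp9 and Srp14, which form the dimer that halts synthesis, had 17.81 and 7.17 CPM per kilobase. The order of the small subunits depended on the length used. Many canonical transcripts here had long untranslated ends: that of Srp14 spans 3652 bases, of which 330 are coding, and that of Srp9 spans 2098, of which 258 are coding. Per kilobase of coding sequence Srp9 was the highest of the SRP genes, at 144.8 CPM. Such values divide all counts of a gene, those from untranslated ends included, by its coding length alone. They are therefore raised for genes with long untranslated ends.

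In the translocon, Sec61a1 (chromosome 6, 88480561 to 88495899), the pore-forming subunit of the channel, had 175.7 ± 29.1 CPM per kilobase (SD, n = 8). Ssr3, a subunit of the translocon-associated protein complex (TRAP) that helps some chains to start crossing, had 144.7 ± 24.95, and the ranges of these 2 genes overlapped. Tram1, another partner of the channel, had 65.72 ± 2.12 CPM per kilobase and was among the steadiest of all the members. Sec62 and Sec63, which serve the entry of chains that arrive after synthesis, had 25.08 and 16.64 CPM per kilobase. Of the small channel subunits, Sec61b had 64.72 CPM per kilobase and Sec61g had 1.92. The low value of Sec61g is uncertain, because 89.3% of its coding sequence had a near-identical copy elsewhere in the genome (at least 60 bases at 98% identity or more), so that reads may have been dropped or divided. The same held for the whole coding sequence of Sec61b, Srp9, Tmed2 and Tmed10, and the levels of these 5 genes are therefore uncertain. Per kilobase of coding sequence Ssr3 led the translocon, with 770.8 CPM against 390.6 for Sec61a1.

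Signal peptidase holds 1 of 2 related catalytic subunits, Sec11a or Sec11c. Sec11c had the highest level in the complex, 158.5 ± 28.79 CPM per kilobase (SD, n = 8), and Sec11a had 32.27 ± 4.62. The accessory subunits Spcs2 and Spcs3 had 51.13 and 50.44 CPM per kilobase and Spcs1 had 15.04. In OST, Rpn2 (chromosome 2, 157120893 to 157168362), a membrane subunit common to all forms of the complex, led with 111.2 ± 9.84 CPM per kilobase. Rpn1 had 74.74 and Ddost 64.79. The value for Ddost carries a doubt, since 49.4% of its canonical transcript overlaps exons of Pink1 on the opposite strand and the sources used here do not give the strand setting of the counting. Of the catalytic subunits, Stt3a, which works at the translocon, had 33.54 CPM per kilobase and Stt3b, which acts on sites that were skipped, had 21.81. Ostc and Krtcap2, both specific to the Stt3a form, had 72.57 and 55.11.

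In the COPII coat the inner layer, Sec23 with Sec24, selects cargo, the outer layer of Sec13 and Sec31 forms the cage, and the GTPase Sar1 starts the assembly. Sec24d (chromosome 3, 123061103 to 123159291) and Sec23b (chromosome 2, 144391970 to 144432684) had the highest levels, 69.87 ± 14.73 and 69.65 ± 19.62 CPM per kilobase (SD, n = 8), which did not differ beyond their spread. Sec31a had 55.1 CPM per kilobase, Sar1a 53.32 and Sec13 38.41. The lowest levels in the coat were those of Sec24a (8.63), Sec24b (6.36) and Sec23a (3.28). The COPI genes were more even, from 39.94 for Copb1 to 73.31 ± 3.56 for Copa (chromosome 1, 171910077 to 171949900), the large subunit that binds the retrieval signals of cargo. Among the cargo receptors, Mcfd2 (chromosome 17, 87519800 to 87573799), the soluble partner of the lectin Lman1 in the export of glycoproteins, had 109.2 ± 30.64 CPM per kilobase, and Lman1 had 40.22 ± 4.84. The p24 proteins Tmed9, Tmed10 and Tmed3 had 106.6, 99.9 and 89.14 CPM per kilobase, close to Mcfd2, whereas their relative Tmed2 had 12.45. The levels of Tmed2 and Tmed10 are uncertain because of the near-identical copies given above, so this contrast is too. Mcfd2 was the highest of its machine per kilobase of canonical transcript and of coding sequence alike (514.1 CPM per coding kilobase). Per kilobase of all annotated exons (22.5 CPM) it lay below Kdelr1 (45.7 CPM), Tmed9 (43.5), Tmed3 (31.2), Kdelr2 (27.0) and Tmed10 (24.7). In the other 6 machines the leading gene differed between canonical and coding length. Per coding kilobase Spcs3 led signal peptidase with 323.8 CPM, Dad1 led OST with 276.6, Sar1a led COPII with 238.5 and Copz1 led COPI with 129.1. These values still hold the counts from untranslated ends. Only 339 of the 3681 bases of Dad1 are coding, so the change of leader depends on the divisor.

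For 7 families the share of each paralog was computed within each library, as a percentage of the summed CPM per kilobase of the family. Sec23b made up 91.1% to 97.0% of Sec23 over the 8 libraries, and Sec11c 80.2% to 84.8% of the Sec11 pair. Sar1b, the paralog known for the export of chylomicrons in absorptive cells, made up 23.3% to 34.9% of Sar1, so that Sar1a prevailed in every library. Among the 4 Sec24 genes the order was Sec24d, Sec24c, Sec24a and Sec24b in all 8 libraries, with mean shares of 61.1%, 25.5%, 7.69% and 5.68%. Stt3a prevailed over Stt3b at 58.4% to 62.7%. The leading paralog of these 5 families was the same per coding length, per union of exons and per count. Copz1 and Kdelr2 were close to their partners Copz2 and Kdelr1, at 47.8% to 59.7% and 49.3% to 58.3%, and the order depended on the length. With the union of exons as length, Copz1 took 43.5% to 55.5% and Kdelr2 31.5% to 39.8%.

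The 7 shares were compared between zinc and water by two-sided exact permutation tests over the 70 assignments of 8 libraries. The smallest p that this exact permutation test can give is p = 0.0286, and its p-values were adjusted over the 7 families. By this exact permutation test, none of the 7 shares passed an adjusted p of 0.05. A single share could not have passed on its own, even at the smallest possible exact p. The exact permutation test therefore cannot decide whether a single share differed. The smallest p was that of Sec11c, with 83.9% ± 0.706 in water and 82.0% ± 1.65 in zinc (SD, n = 4; exact p = 0.114, adjusted p = 0.65). For Sec23b the shares were 95.5% ± 1.24 and 94.7% ± 2.41 (n = 4; exact p = 0.686, adjusted p = 0.8). In the Sec24 family Sec24d took 62.7% ± 1.95 and 59.5% ± 5.51 (n = 4; exact p = 0.371, adjusted p = 0.65). Zinc replicate 3 had the lowest share of the 8 libraries for Sec23b (91.07%), Sec24d (51.74%), Sec11c (80.23%), Copz1 (47.77%) and Kdelr2 (49.27%), and the highest share of Sar1b (34.91%). For Sar1b the difference, zinc minus water, was -0.475 percentage points (exact p = 0.971, n = 4 per group), for Copz1 -3.19 (exact p = 0.286), for Kdelr2 -3.06 (exact p = 0.2) and for Stt3a 0.935 (exact p = 0.514). Without zinc replicate 3 the differences were -0.644 points for Sec24d, -1.42 for Copz1, -1.56 for Kdelr2 and -1.25 for Sec11c. They were 0.455 for Stt3a and 0.387 for Sec23b. That of Sar1b was -2.91 points, larger in size than with all libraries.

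**Figure D2:**
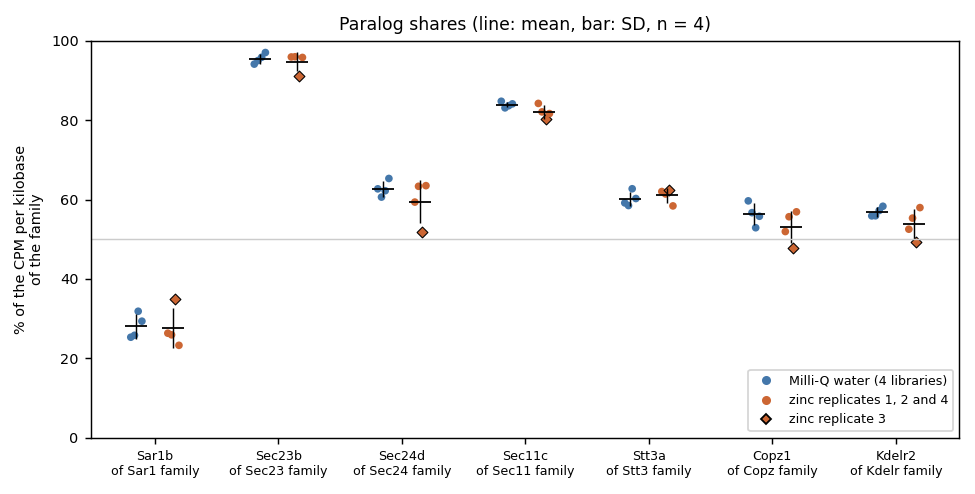
Share of 1 paralog in each of 7 families, in percent of the summed CPM per kilobase of the family (vertical axis), for 4 Milli-Q water (blue) and 4 zinc libraries (orange; outlined diamond, zinc replicate 3), with horizontal lines for means and bars for SD (n = 4). Sec23b and Sec11c stayed above 80% in every library, Sar1b stayed below 35%, and zinc replicate 3 had the lowest share in 5 of the families.

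The comparison that the design addresses is that of zinc with Milli-Q water in mice given TNF. In the edgeR fit over all genes, 0 of the 53 genes passed an adjusted p of 0.05 (background 0.0% of the 10707 genes tested), and the smallest adjusted p among them was 0.485. At an unadjusted p under 0.05, 2 of the 53 were lower with zinc (background 3.78%) and 0 were higher (background 6.42%). DESeq2 likewise called 0 of the 53 (background 0.0214%) and gave the same 2 genes, Mcfd2 and Sec61g, at an unadjusted p under 0.05. The log2 fold change, zinc over water, was below 0 for 41 of the 53 genes (background 49.2%), with a median of -0.13 against 0.01 for all genes tested. The median was -0.19 for the SRP genes (6 of 6 below 0), -0.19 for the translocon and TRAP (8 of 10), -0.11 for signal peptidase (5 of 5), -0.06 for OST (6 of 8), -0.19 for COPII (8 of 10), -0.01 for COPI (3 of 6) and -0.11 for the cargo receptors (5 of 8). The summed level of the 53 genes was 7889 ± 535 CPM in water and 7307 ± 741 CPM in zinc (SD, n = 4).

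This count depended on the 3 libraries that stood apart. Without zinc replicate 3, 34 of the 53 genes were below 0 (background 49.4%) with a median of -0.06. Without Milli-Q water replicates 3 and 4, 28 were below 0 with a median of -0.01, against 0.02 for all genes tested. Without all 3 libraries, 12 were below 0 (background 48.0%), with a median of 0.04, and no member had an unadjusted p under 0.05 in edgeR. That fit held only Milli-Q water replicates 1 and 2 and zinc replicates 1, 2 and 4, so the lack of a small p decides little. It was chosen after the data were seen. The libraries left out held many of the highest water and lowest zinc values, so a shift upward follows from the choice. By machine, 1 of the 6 SRP genes was then below 0 (median 0.02), 3 of 10 of the translocon and TRAP (0.03), 0 of 5 of signal peptidase (0.13), 1 of 8 of OST (0.07), 4 of 10 of COPII (0.02), 2 of 6 of COPI (0.05) and 1 of 8 cargo receptors (0.05). Leaving out zinc replicate 3 alone moved the median of COPII to -0.07 and that of the cargo receptors to -0.01. The sums of crypt stem cell markers, given above, were higher in 3 of the 4 zinc libraries than in any water library, and their part in these values was not tested. Zinc replicate 3 was the lowest of the 8 libraries for 32 of the 53 genes (background 30.0%), and Milli-Q water replicate 3 or 4 was the highest for 31 (background 28.2%). The sum of the 53 genes ran from 7257 to 8487 CPM in the other 7 libraries and was 6285 CPM in zinc replicate 3.

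**Figure D3:**
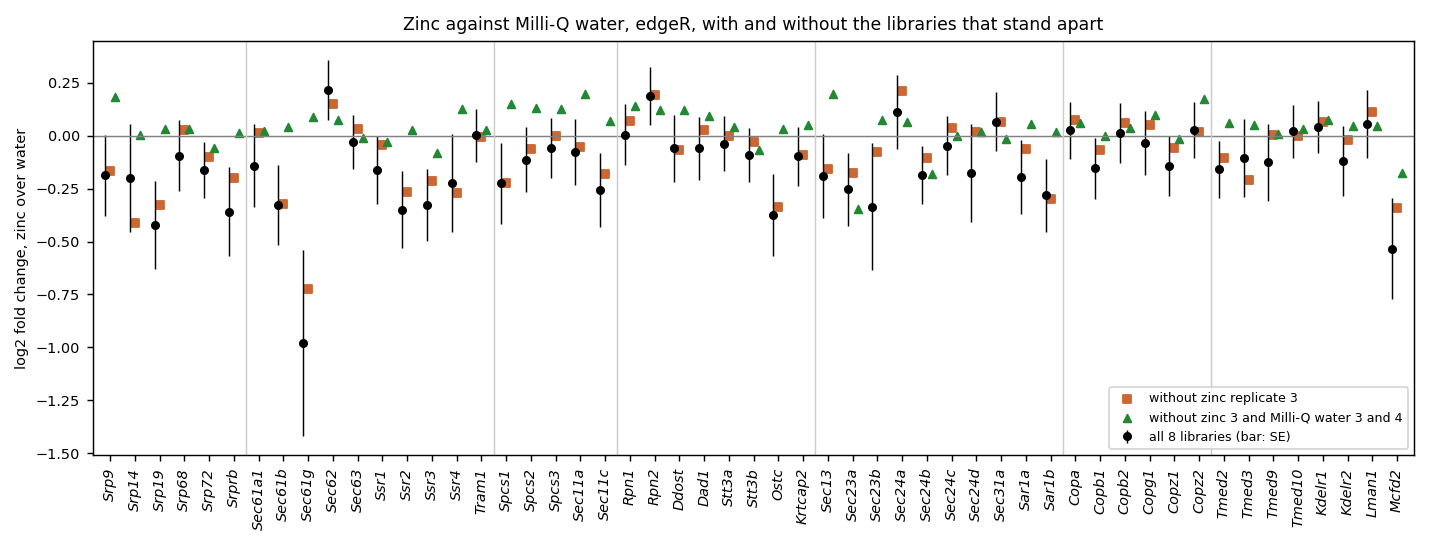
Log2 fold change, zinc over water (vertical axis), of the 53 genes by machine (horizontal axis): black circles with SE bars for all 8 libraries, orange squares without zinc replicate 3, green triangles without zinc replicate 3 and Milli-Q water replicates 3 and 4. With all libraries 41 of the 53 lay below 0, and without the 3 libraries 12 did.

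Mcfd2 had the smallest p of the 53. Its CPM in water was 245.7, 225.4, 289.3 and 298.1 in replicates 1 to 4, and in zinc 169.6, 207.8, 107.2 and 246.0. The groups overlapped only through zinc replicate 4, and zinc replicate 3 was the lowest (log2 fold change -0.53, SE 0.239; edgeR adjusted p = 0.485). Without zinc replicate 3 the log2 fold change was -0.34, and without all 3 libraries -0.18. Lman1, the lectin that Mcfd2 binds, had 200.4, 185.7, 141.6 and 210.1 CPM in water and 204.0, 190.1, 170.1 and 202.3 in zinc, and the groups overlapped.

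Sec61g (chromosome 11, 16450320 to 16458507) was the other gene with an unadjusted p under 0.05. It had 3.21, 2.74, 6.52 and 8.87 CPM in water and 3.46, 3.51, 1.26 and 2.5 CPM in zinc, from 18 to 111 counts a library. Milli-Q water replicates 3 and 4 were high and zinc replicate 3 was low, while the other 5 libraries lay within 2.5 to 3.51 CPM (log2 fold change -0.98, SE 0.44; edgeR adjusted p = 0.485). Without those 3 libraries the log2 fold change was 0.09. Srp19, an SRP subunit that prepares the RNA for the signal-binding protein, was likewise highest in Milli-Q water replicates 3 and 4 and lowest in zinc replicate 3, with 20.83, 20.58, 32.46 and 32.9 CPM in water and 19.28, 18.99, 16.19 and 25.05 in zinc. Ostc was also highest in those water libraries, but its zinc replicate 3 was close to zinc replicate 1, with 64.96, 69.96, 113.6 and 100.8 CPM in water and 64.58, 67.06, 62.52 and 74.83 in zinc. Their log2 fold changes were -0.42 and -0.38 with all libraries and 0.03 each without the 3 libraries. Ssr3 had 437.4, 428.9, 521.5 and 516.9 CPM in water and 380.4, 406.3, 291.9 and 438.9 in zinc (log2 fold change -0.33, SE 0.171; edgeR adjusted p = 0.499). Here zinc replicate 3 lay far below the rest, and zinc replicate 4 lay above the lowest 2 water libraries. The log2 fold change was -0.22 without zinc replicate 3 and -0.08 without all 3 libraries.

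Rpn2 was the only gene of the 53 whose groups did not overlap, with zinc higher (background 2.76%); with zinc lower there were 0 (background 3.12%). It had 338.2, 308.1, 280.7 and 306.2 CPM in water and 371.2, 341.5, 352.2 and 339.7 in zinc. The gap between the groups was narrow, and the difference did not pass (log2 fold change 0.19, SE 0.136; edgeR adjusted p = 0.586). It was 0.19 without zinc replicate 3 and 0.12 without all 3 libraries. Sec62 had 119.0, 118.9, 97.98 and 116.0 CPM in water and 132.5, 115.2, 150.4 and 127.4 in zinc (log2 fold change 0.22, SE 0.143; edgeR adjusted p = 0.55). Zinc replicate 3 was the highest library for this gene, unlike most members, and the log2 fold change was 0.15 without it and 0.07 without all 3 libraries. The other members with the smallest p in this direction had log2 fold changes near 0: Sec24a 0.11, Sec31a 0.07 and Kdelr1 0.04, each with an SE of 0.123 or more.

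Zinc replicate 3 was not lower for all members alike. On the log2 scale the members had a median of -0.25 in that library against the mean of the other 7 (43 of 53 below 0), while the median of all genes was 0.04 (48.1% below 0). Sec61g had 0.287 of the mean of the other 7 libraries, Sec23b 0.34, Mcfd2 0.446, Sec24d 0.511, Srprb 0.548 and Sec61a1 0.603. These genes were singled out after their values were seen. Sec23b had 199.5, 192.2, 216.1 and 262.4 CPM in water and 184.7, 212.5, 72.34 and 220.5 in zinc. Sec24d, which pairs with Sec23 in the inner coat, had 295.3, 282.2, 263.9 and 316.0 CPM in water and 248.7, 289.2, 148.5 and 338.4 in zinc, so that zinc replicate 4 was the highest and zinc replicate 3 the lowest of the 8. Sec61a1 showed the same order at its ends, with 599.7, 561.9, 555.1 and 624.0 CPM in water and 523.6, 586.0, 354.0 and 657.6 in zinc. With zinc replicate 3 left out, the log2 fold changes were -0.07 for Sec23b, 0.02 for Sec24d and 0.01 for Sec61a1, from -0.33, -0.18 and -0.14 with all libraries.

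Other coat genes were nearer to the rest in that library. Sec23a had 18.99, 15.35, 14.26 and 12.22 CPM in water and 11.98, 13.61, 10.79 and 14.74 in zinc, 0.747 of the mean of the other 7 in zinc replicate 3. Sec24a, Sec24b and Sec24c had 0.803, 0.764 and 0.8 of that mean, and Sec31a of the outer cage had 1.05. Sar1a had 143.1, 134.9, 165.7 and 160.9 CPM in water and 137.5, 134.3, 96.38 and 160.6 in zinc, whereas Sar1b had 23.02, 22.25, 36.76 and 31.71 in water and 23.31, 22.28, 24.53 and 23.12 in zinc. For Sar1a the lowest library was thus zinc replicate 3, and for Sar1b the high ones were Milli-Q water replicates 3 and 4. Members above the mean of the other 7 in zinc replicate 3 included Srp14 (1.38), Sec62 (1.27) and Tmed3 (1.21). The TNF targets and the enterocyte markers differed in the same library, as given above, and their part in these values was not tested.

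**Figure D4:**
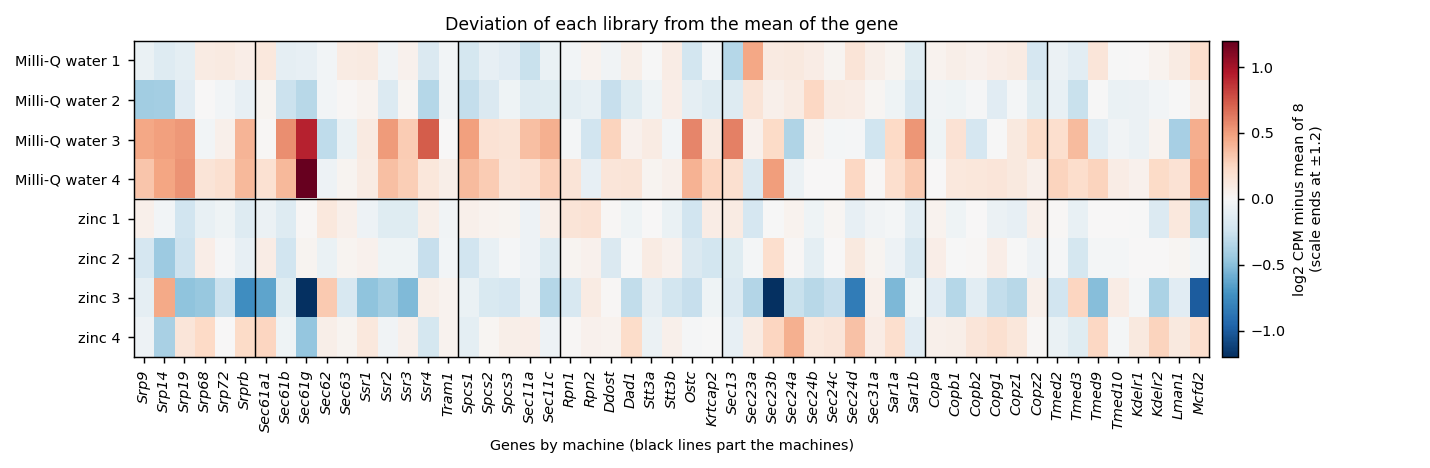
Deviation of log2 CPM from the mean of the 8 libraries for each gene (columns, by machine, with black lines between machines) and library (rows); red is above and blue below the mean, and the color scale ends at ±1.2. Zinc replicate 3 was the lowest library for 32 of the 53 genes, and Milli-Q water replicate 3 or 4 the highest for 31.

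The values of the remaining paralogs and leading genes follow. Stt3a had 196.1, 189.6, 210.1 and 201.3 CPM in water and 197.3, 210.4, 182.6 and 186.9 in zinc, and Stt3b had 111.8, 111.1, 103.1 and 109.7 in water and 99.78, 109.2, 90.35 and 110.0 in zinc. Copa had 351.3, 329.6, 328.5 and 340.9 CPM in water and 350.8, 358.4, 310.4 and 354.8 in zinc. The groups overlapped for these genes. Kdelr1 and Kdelr2, the receptors that return ER-resident proteins from the Golgi complex, had 108.9 to 118.5 and 158.0 to 189.6 CPM in water, and 112.3 to 123.8 and 124.8 to 195.3 in zinc. Copz1 ran from 83.64 to 92.65 CPM in water and from 67.5 to 93.85 in zinc, and Copz2 from 34.97 to 46.72 and from 38.4 to 41.99. Sec24b and Sec24c ran from 33.22 to 39.32 and from 126.3 to 137.2 CPM in water, and from 26.29 to 36.17 and from 105.7 to 142.5 in zinc. Zinc replicate 3 gave the lowest zinc value for Copz1, Kdelr2, Sec24b and Sec24c.

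Sec11c, the leading signal peptidase subunit per canonical kilobase, had 127.2, 121.5, 181.1 and 163.8 CPM in water and 141.0, 120.7, 106.1 and 129.3 in zinc. Sec11a had 30.39, 32.84, 47.08 and 41.13 CPM in water and 35.1, 35.03, 34.7 and 38.59 in zinc. Milli-Q water replicates 3 and 4 were the highest libraries for both, and their share of the pair moved by less than their CPM. Srp68 had 160.2, 149.6, 145.9 and 166.7 CPM in water and 140.3, 158.0, 109.3 and 175.8 in zinc, with zinc replicate 3 the lowest.

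The height of Milli-Q water replicates 3 and 4 went with the length of the gene. Across the 53 genes, their log2 difference from the 5 other libraries apart from zinc replicate 3 had a Spearman's rho of -0.624 with canonical length and of -0.754 with coding length. Genes are not independent replicates and these libraries share the pattern over all genes, so this is a description. Among the 16 members with a coding length under 600 bases, which include Sec61b, Sec61g, Srp9, Srp14, Srp19 and Mcfd2, 15 had their highest value in 1 of these 2 libraries. All 16 had a log2 fold change below 0, with a median of -0.24, and without these libraries 7 of the 16 did, with a median of 0.02. Among the 19 members with a coding length of 1500 bases or more, which include the large Sec24, Sec31a and COPI subunits, 5 had their highest value in these libraries, and the median was -0.04 with them and -0.08 without. Of these 19, 14 were lowest in zinc replicate 3. Between those limits were 18 genes, with medians of -0.12 and 0.04. Over all genes tested, of any length, 49.2% had a log2 fold change below 0. Milli-Q water replicate 3 or 4 was the highest for 28.2% of all genes, and zinc replicate 3 the lowest for 30.0%. Such shares are not given for genes of the same length, so these counts are not read as particular to the members. The length limits were chosen after the values were seen. With a smooth trend on canonical transcript length taken out of each library, 42 of the 53 members were below 0 with a median of -0.10, close to the values without it.

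**Figure D5:**
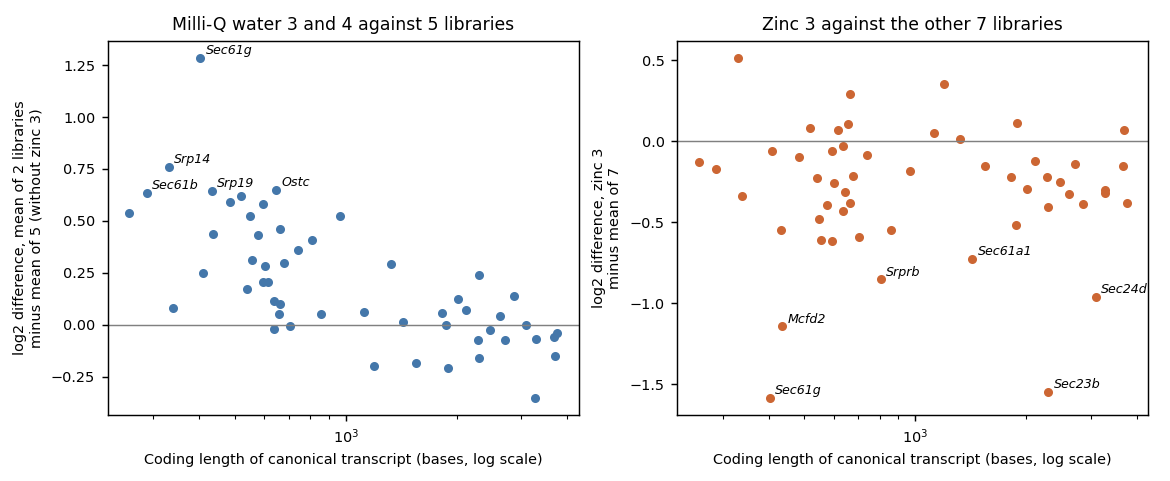
Left, log2 difference between the mean of Milli-Q water replicates 3 and 4 and the mean of the 5 other libraries apart from zinc replicate 3 (vertical axis) against coding length in bases (log scale), 1 point per gene; the difference was larger for short genes (Spearman's rho -0.754, n = 53). Right, log2 difference between zinc replicate 3 and the mean of the other 7 libraries against the same axis, with Sec61g, Sec23b, Mcfd2, Sec24d, Srprb and Sec61a1 the lowest.

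Other genes of the same route were read from the same fit, from a list of 89. Of these, 2 symbols were not matched and 3 genes were below the filter, and 0 of the 84 tested passed an adjusted p of 0.05 in edgeR (background 0.0%). None had an unadjusted p under 0.05 on the lower (background 3.78%) or higher side (background 6.42%). The groups did not overlap for 1 of the 84 with zinc higher (background 2.76%), Uggt1, which checks the folding of glycoproteins, and for 2 with zinc lower (background 3.12%), the GTPase Rab1a and the p24 protein Tmed5, with log2 fold changes of 0.26, -0.27 and -0.55. These 3 genes were named after their values were seen. Without zinc replicate 3 their log2 fold changes were 0.28, -0.13 and -0.30. The log2 fold change was below 0 for 51 of the 84 (background 49.2%), with a median of -0.05. Without zinc replicate 3 the median was -0.03. By group the medians were -0.05 for further SRP, translocon and membrane insertion genes (14 of 23 below 0) and 0.00208 for further glycosylation genes (12 of 24). They were -0.22 for further COPII and exit-site genes (10 of 14) and -0.06 for further COPI genes and cargo receptors (15 of 23). The background of 49.2% holds for each. Without zinc replicate 3 the medians were -0.01, -0.03, -0.11 and -0.02 in that order. That library was the lowest for 9 of the 14 COPII and exit-site genes (background 30.0%). Get4, which hands tail-anchored proteins on for insertion, had the smallest p on the lower side (log2 fold change -0.39, SE 0.174; edgeR adjusted p = 0.485). Emc2 of the ER membrane complex and Ergic2 of the ER-Golgi intermediate compartment followed, with log2 fold changes of -0.45 and -0.32. On the higher side were Mia3 (0.33), which helps COPII load bulky cargo such as collagen, and Alg3 (0.26), a mannosyltransferase that builds the sugar tree. Emc9 (log2 fold change 1.23, SE 0.672) was also on that side and averaged 0.593 CPM in water and 1.34 CPM in zinc. It had 2.874 CPM in zinc replicate 3 and 0.573 to 1.03 CPM in the other zinc libraries. Without zinc replicate 3 the log2 fold changes were 0.26 for Mia3, 0.24 for Alg3 and 0.53 for Emc9. Those of Get4, Emc2 and Ergic2 were then -0.39, -0.53 and -0.25.

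Stress in the ER is known to induce many genes of this route through short promoter elements, among them the ER stress response element (ERSE), its variant ERSE-II, and the unfolded protein response element (UPRE). The letters of these 3 elements were looked for on both strands, from 250 bases before to 50 bases after the start of the canonical transcript. ERSE was in the window of 0 of the 53 members and of 0.125% of 21627 protein-coding genes, and ERSE-II in 1 of 53 (Tmed2) and 0.0694%. TGACGTGG, the letters used for UPRE, were in 3 of 53 (Sec24a, Sec24d and Srp19) and in 0.721% of protein-coding genes, or 0.859% of the 10365 protein-coding genes tested. No match overlapped another in these 4 genes. A match of letters is no evidence of binding, and its absence says only that these letters are not in this window. The stretches of 3 genes are shown, and that of Srp19 is not. Of the 3, 2 lie in paralogs of very unequal level, Sec24d and Sec24a. Capitals mark the element (GRCm39, each on the strand of its gene).
Tmed2, chr5:124678626-124678686, plus strand, ERSE-II: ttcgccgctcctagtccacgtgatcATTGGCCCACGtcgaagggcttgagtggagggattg
Sec24d, chr3:123061108-123061137, plus strand, UPRE: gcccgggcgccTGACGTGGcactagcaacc
Sec24a, chr11:51647423-51647452, minus strand, UPRE: gcgggagtccgTGACGTGGcaggcgagtcc
The element began 107 bases before the first transcribed base in Tmed2, and 15 and 4 bases after it in Sec24d and Sec24a. The log2 fold changes were -0.16 (Tmed2, SE 0.135), -0.18 (Sec24d, SE 0.229), 0.11 (Sec24a, SE 0.175) and -0.42 (Srp19, SE 0.206). None of them passed, and with these SEs the values do not tell whether the genes move together.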

How the data were processed

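RNA of sorted PCs from 8 mice was sequenced from strand-specific polyadenylated libraries. The authors deposited 1 table of raw counts per Ensembl gene. Per the submitters' notes, FastQC 0.12.0, STAR 2.7.10a, DESeq2 and the mm39 build were used. The counting tool, annotation, strand setting and handling of multiply mapped reads are not given in the sources used here, which bears on genes with near-identical copies. Groups were taken from the deposited labels, and no sample was left out. That replicates are single mice is given by the design text.

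Identifiers were matched to GENCODE M39 on GRCm39 for symbols, coordinates and lengths (54749 matched; 665 did not, with 0.00443% of counts). The groups were compared in edgeR 4.0.16 under R 4.3.3 (quasi-likelihood fit and F-test) on all 8 libraries, with TMM factors and the default filter, which kept 10707 genes holding 99.89% of counts, and Benjamini-Hochberg adjustment over all of them (threshold 0.05, biological coefficient of variation 0.269). The SE of a log2 fold change was derived from its F value. Among 28 library pairs, chi-square over its degrees of freedom was at least 6.05; no pair came within counting noise, and each library counted as 1 replicate. Paralog shares were compared by exact permutation (scipy 1.17.1). Near-identical copies were sought with BLAST. The steps were tested on simulated data.

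Given with values in every library or by range were the highest member of each machine per canonical kilobase, the paralog families, the 5 members of smallest p in each direction, members whose groups did not overlap and, of further genes, the 3 of smallest p in each direction; others are named after their values were seen. The members and lists were chosen with earlier results of these data known. Alternatives were no filter, DESeq2 1.42.0 and its size factors, removal of Defa genes, upper-quartile factors, a stricter filter (1 CPM in 4 libraries and 100 counts), limma-voom (limma 3.58.1) with sample weights, a replicate block, each library left out, a transcript length trend, and exon-union or no length. Leaving out 3 libraries together and coding length were chosen after seeing the data. Floors cover counting error only.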

Additional observations from a re-analysis of the deposited data

Results flagged for a closer look

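In groups of 4, a library was singled out where its gap to the nearest other was a share of the range above Dixon's 95% critical value. Chance gives about 1 in 20, or 4.2 of the 84 groups searched, and 4 were found. Copa had 310.4 CPM in zinc replicate 3 against 350.8 to 358.4 in the other zinc libraries. Sec11a had 38.59 CPM in zinc replicate 4 against 34.7 to 35.1. Sec62 had 97.98 CPM in Milli-Q water replicate 3 against 116.0 to 119.0. The share of Sec23b in its family was 91.07% in zinc replicate 3 against 95.79% to 95.96%.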

How the results depend on the processing

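The count of members past the threshold was 0 under every alternative run. Over all genes DESeq2 called 4 against 0 in edgeR. The number of members with an unadjusted p under 0.05 was 2, and it was 0 without the Defa genes, with the length trend, without Milli-Q water replicates 3 and 4, and without these and zinc replicate 3; it was 1 with limma-voom, the stricter filter and upper-quartile factors, and 0 to 7 with single libraries left out (7 without Milli-Q water replicate 2). Members below 0 numbered 34 to 45 with single libraries left out, and 12 without the 3 libraries, where the median was 0.043. The median was -0.013 without Milli-Q water replicates 3 and 4, and -0.186 to -0.0572 with single libraries left out. Without the 3 libraries the log2 fold change turned to 0.0909 for Sec61g, 0.0307 for Srp19, 0.0318 for Ostc, -0.0132 for Sec31a, 0.0756 for Sec23b, 0.02 for Sec24d and 0.0236 for Sec61a1. Without Milli-Q water replicates 3 and 4 it was -0.044 for Sec24a and -0.0175 for Sec31a, and the Sar1b and Sec23b differences in share turned to 2.05 and 0.12 percentage points. With single libraries left out, the log2 fold change ran from -1.21 to -0.604 for Sec61g, -0.557 to -0.301 for Srp19, -0.498 to -0.228 for Ostc, 5.45e-05 to 0.0978 for Sec31a, -0.479 to -0.0742 for Sec23b, -0.0322 to 0.211 for Sec24a (lowest without zinc replicate 4), -0.343 to 0.0183 for Sec24d and -0.267 to 0.0145 for Sec61a1 (both highest without zinc replicate 3). The shares ran from -2.91 to 0.969 percentage points for Sar1b and from -1.28 to 0.387 for Sec23b (highest without zinc replicate 3), -4.56 to -0.644 for Sec24d, -4.47 to -1.42 for Copz1, -4.46 to -1.56 for Kdelr2, -2.58 to -1.25 for Sec11c and 0.38 to 1.83 for Stt3a. The cause of these turns was not tested. Of the other values recomputed, 274 for summaries and 235 for single genes moved by less than the spread between replicates, or kept their direction and side of the threshold. Among the former, the summed level of COPI (log2 zinc over water -0.039) was 0.00399 with upper-quartile factors and 0.0127 without zinc replicate 3, and that of OST (-0.0432) was 0.00209 with upper-quartile factors. The length of the exon union or coding sequence changed which gene leads a machine but no share test.

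Replicate numbers did not pair the samples: same-numbered libraries correlated at -0.0232 to 0.0286 in their deviations, others at -0.133 to 0.157. With the number as a replicate block, 1 member had an unadjusted p under 0.05, and the sign-flip test of shares cannot go below p = 0.125 with an exact test.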
